A study of Mus musculus with 8 samples.

Results

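The Src-family kinases, their inhibitory kinase Csk and the adaptor Shc1 were followed in the mouse ventral prostate, at every probe set annotated to exactly one of 9 genes: Src, Fyn, Yes1, Lyn, Lck, Fgr, Blk, Csk and Shc1. The annotation gave 11 probe sets for 7 of the 9 genes, out of 22626 probe sets and 12393 named genes on the array. Src, Fyn, Yes1 and Shc1 had 2 probe sets each, and Csk, Fgr and Blk had 1 each. Lyn and Lck had 0 in the annotation used here and were not analysed.

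The study compared ventral prostate of male FVB mice aged 8 weeks, with 4 arrays for wild-type animals and 4 for animals transgenic for the polyoma virus middle T antigen (MT), which gives rise to carcinoma of the prostate. Both groups share strain, sex, age and tissue. The labels give neither the promoter that drives the transgene nor whether each array stands for a different mouse, so the p-values reflect only the spread among these samples and part of that spread could be technical. All values are log2 values after RMA (robust multi-array average, which corrects background, scales arrays by quantiles and combines the probes of a probe set), and each difference is MT minus wild type. A difference was called at an adjusted p under 0.05 in limma, a linear model with moderated variances fitted to all 22626 probe sets.

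Src-family kinases are membrane-anchored tyrosine kinases held inactive by a phosphorylated tyrosine in their C-terminal tail. Csk is the kinase that phosphorylates that tail. Src, Yes1 and Fyn are broadly expressed and are the family members that middle T is known to bind and activate. Fgr is mainly a myeloid kinase, Blk a kinase of the B cell lineage, Lck of T cells and Lyn of B and myeloid cells. Shc1 docks on phosphorylated tyrosines, of middle T among others, and passes the signal to Grb2 and Ras. Arrays measure the RNA of these genes, not the activity or phosphorylation of the kinases.

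Src and Csk were the members that rose, and no member was called lower. Of the 11 probe sets, 3 passed the threshold, all higher in MT, where 18.1% of all probe sets were called higher, 19.7% lower and 37.8% in either direction. The 4 MT values lay wholly above the 4 wild-type values at 2 of the 11, one of Src and that of Csk. Over all probe sets, 37.5% did not overlap, counting both directions. The median difference was 0.15 over the 11 probe sets and -0.01 over all probe sets. The members called, 3 of 11, were a smaller share than the 37.8% called in either direction over the array and a larger one than the 18.1% called higher, and neither contrast was tested.

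The RefSeq sequences before the start sites of Src, Csk and Shc1 are shown because Src and Csk were the genes called and Shc1 lay nearest the threshold among the others. Each run is the 250 bases before an annotated start on GRCm38.p6, 5′ to 3′ along the gene, and capitals mark matches on either strand to GGGCGG (the GC box of many housekeeping promoters) or to the CCAAT box, spelled CCAAT.
Src, chr2:157424043-157424292, plus strand: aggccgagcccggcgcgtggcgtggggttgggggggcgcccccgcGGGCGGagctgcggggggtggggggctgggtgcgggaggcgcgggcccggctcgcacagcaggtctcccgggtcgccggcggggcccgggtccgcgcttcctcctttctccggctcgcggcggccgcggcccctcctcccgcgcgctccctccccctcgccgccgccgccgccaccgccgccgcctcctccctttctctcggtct
Csk, chr9:57653632-57653881, minus strand: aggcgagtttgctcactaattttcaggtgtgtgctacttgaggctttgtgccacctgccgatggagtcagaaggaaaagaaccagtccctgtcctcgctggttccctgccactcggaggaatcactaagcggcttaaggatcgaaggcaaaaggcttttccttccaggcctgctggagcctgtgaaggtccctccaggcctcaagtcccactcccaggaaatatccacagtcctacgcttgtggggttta
Shc1, chr3:89418301-89418550, plus strand: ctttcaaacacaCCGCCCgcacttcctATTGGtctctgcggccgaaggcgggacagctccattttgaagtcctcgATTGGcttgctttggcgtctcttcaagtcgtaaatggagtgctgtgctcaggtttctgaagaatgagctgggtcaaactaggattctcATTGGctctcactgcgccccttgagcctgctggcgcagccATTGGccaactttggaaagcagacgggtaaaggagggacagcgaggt
The Src window was 82.8% G and C, that of Csk 54% and that of Shc1 54.4%, beside a median of 52.4% over 32851 windows of that length. Src held 1 GC box, Csk held 0 matches to any motif searched, and Shc1 held 1 GC box and 4 CCAAT boxes. Of all windows, 32.7% held a GC box and 33.8% a CCAAT box. The ETS core, searched as CGGAAG, is held by 13.6% of all windows and had 0 matches in these 3. The TATA box, searched as TATAAA, is held by 12.4% of them and had 0 matches here as well. The AP-1 site, searched as TGANTCA, is held by 6.75% of all windows and had 0 matches in the 3 shown. A second annotated start of Csk held 0 matches to any of the 5 motifs and that of Shc1 held 2 CCAAT boxes and 1 AP-1 site. No 2 of these motifs share letters in the windows shown. Which start the prostate uses was not measured, and a match describes letters in a window only.

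Src was measured by 2 probe sets, and both were called, one of them (1450918_s_at) in only 2 of the 8 fits that left out a single array. At probe set 1423240_at the wild-type arrays 1 to 4 read 7.74, 7.71, 7.46 and 7.62, and the MT arrays 1 to 4 read 8.08, 8.16, 8.03 and 8.01. Every MT array was above every wild-type array. The means were 7.63 ± 0.13 and 8.07 ± 0.07 (SD, n = 4), a difference of 0.43 ± 0.08 (SE), or 1.35-fold, with a 95% confidence interval from 0.27 to 0.60 and an adjusted p of 0.000998 (limma).

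The other Src probe set, 1450918_s_at, read 8.14, 8.02, 8.10 and 8.33 on the wild-type arrays and 8.55, 8.39, 8.25 and 8.47 on the MT arrays. The groups overlapped, since wild-type array 4 was above MT array 3. The difference was 0.27 ± 0.09 (SE), 1.20-fold, with an interval from 0.07 to 0.46 and an adjusted p of 0.0346 (limma). The difference between the changes of the 2 Src probe sets was 0.17, within the spread between arrays (exact permutation test over 70 assignments of arrays, two-sided, p = 0.2; adjusted p = 0.514 over the 4 genes with a pair of probe sets). The ending _s_at marks a probe set whose probes can match more than one transcript. Probe sequences were not used here, so shared hybridisation between the related kinases was not examined.

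Csk, measured by probe set 1423518_at, read 7.47, 7.61, 7.66 and 7.48 on the wild-type arrays and 7.90, 8.04, 8.05 and 7.94 on the MT arrays. The groups did not overlap. The means were 7.55 ± 0.09 and 7.98 ± 0.07 (SD, n = 4), a difference of 0.43 ± 0.07 (SE), 1.35-fold, with an interval from 0.27 to 0.58 and an adjusted p of 0.000635 (limma). The inhibitor of the family was thus higher in MT, as Src was, which describes the groups and not single arrays.

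**Figure D1:**
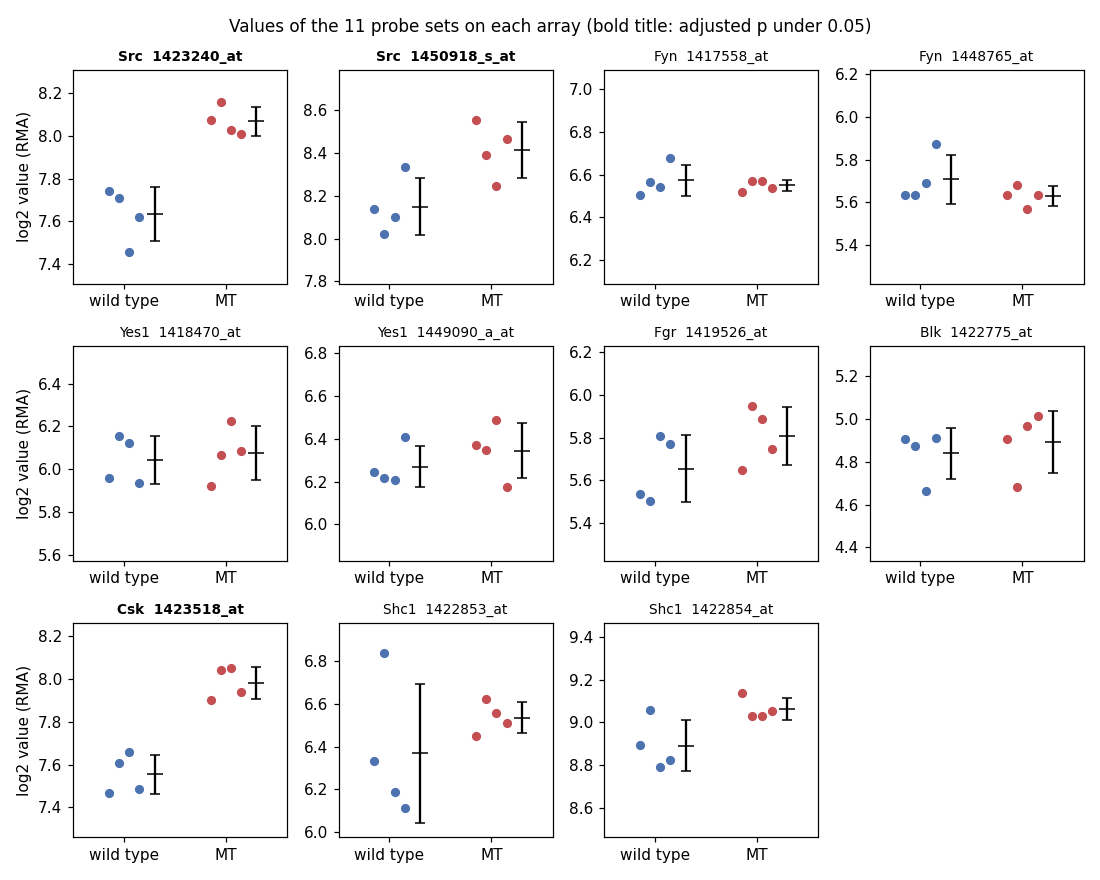
Log2 value of each of the 11 probe sets (panels) on the 4 wild-type arrays (blue) and 4 MT arrays (red), with mean ± SD beside them in black; each panel spans 1 log2 unit around its own values. Src 1423240_at and Csk are the panels in which the groups do not overlap.

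Fyn gave no call at either probe set. At 1417558_at the wild-type arrays read 6.50, 6.57, 6.54 and 6.68 and the MT arrays 6.52, 6.57, 6.57 and 6.54, a difference of -0.02 ± 0.06 (SE, adjusted p = 0.802, limma) with a 95% interval from -0.16 to 0.11. All 4 MT arrays lay inside the wild-type range. At 1448765_at the wild-type arrays read 5.64, 5.63, 5.69 and 5.87 and the MT arrays 5.64, 5.68, 5.57 and 5.64, a difference of -0.08 ± 0.07 (SE, adjusted p = 0.441, limma), with an interval from -0.23 to 0.08. Wild-type array 4 was the highest of the 8 at both Fyn probe sets. The same array had the highest mean level of 12 fibroblast and matrix genes (8.70, against 8.02 to 8.49 on the other wild-type arrays) and of 6 adipocyte genes (7.95, against 5.82 to 7.16). It was also the highest wild-type array for macrophage (6.81), endothelial (5.52) and luminal epithelial (10.72) genes. For smooth muscle, basal epithelial, secretory, granulocyte, T and NK cell, and B and plasma cell genes it was not. For mast cell genes it was the lowest wild-type array. Wild-type array 1, with a fibroblast and matrix level of 8.49, was the lowest of the 8 at Fyn 1417558_at. On the MT arrays the fibroblast and matrix level was 7.41 to 7.95. The part of cell make-up in the Fyn values was not tested, and in bulk tissue fewer cells of a type and less RNA per cell cannot be told apart.

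Yes1 overlapped between groups at both probe sets. At 1418470_at the wild-type arrays read 5.96, 6.15, 6.12 and 5.94 and the MT arrays 5.92, 6.07, 6.23 and 6.09, a difference of 0.03 ± 0.08 (SE, adjusted p = 0.802, limma), with an interval from -0.15 to 0.21. The lowest and the highest of these 8 values were both MT arrays. At 1449090_a_at the arrays read 6.24, 6.22, 6.21 and 6.41 in wild type and 6.37, 6.35, 6.49 and 6.17 in MT, a difference of 0.07 ± 0.08 (SE, adjusted p = 0.517, limma), with an interval from -0.10 to 0.25. The intervals of Fyn and Yes1 exclude a rise as large as the 0.43 measured for Csk and at Src 1423240_at, but not a smaller change.

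Fgr and Blk, the kinases of blood cells, were not called. Fgr (1419526_at) read 5.54, 5.50, 5.81 and 5.77 on the wild-type arrays and 5.65, 5.95, 5.89 and 5.75 on the MT arrays, a difference of 0.15 ± 0.09 (SE, adjusted p = 0.236, limma), with an interval from -0.05 to 0.36. The 2 groups overlapped, with MT arrays 2 and 3 above all wild-type arrays. Blk (1422775_at) read 4.91, 4.87, 4.66 and 4.91 in wild type and 4.91, 4.68, 4.97 and 5.01 in MT, a difference of 0.05 ± 0.09 (SE, adjusted p = 0.683, limma), with an interval from -0.14 to 0.25. All 11 member probe sets were above the 12 newer (r2) Bacillus control probe sets, which read 2.57 to 3.90, on 8 of 8 arrays. Among all 27 Bacillus controls, of which 2 read above 4 and the highest reached 5.86, Blk was above the highest control on 0 arrays, Fyn 1448765_at on 2 and Fgr on 6. RMA values carry no detection call, so whether Blk RNA was present was not settled.

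Markers of blood cells were read in the same arrays, where 19.7% of all genes were called higher and 21.3% lower, and no list was tested as a whole. Of 16 macrophage and monocyte genes, 9 were higher and 1 lower in MT, with a mean level of 6.27 to 6.81 on the wild-type arrays and 6.93 to 7.09 on the MT arrays. Ctss, a lysosomal protease of macrophages, rose by 2.40 ± 0.18 and Cd14 by 1.30 ± 0.09, while Itgam differed by 0.03 ± 0.08 (adjusted p = 0.82). Of 10 granulocyte genes 3 were higher, of 13 T and NK cell genes 5 were higher and 1 lower, and of 8 B and plasma cell genes 2 were higher, Jchain and Sdc1. Of 8 mast cell genes 0 passed in limma, with 2 at an unadjusted p under 0.05. Ms4a1, the B cell antigen CD20, differed by 0.79 ± 0.29 (adjusted p = 0.0513), and Pax5, a B cell factor, by 0.13 ± 0.10 (adjusted p = 0.349). Ighm, an immunoglobulin chain of the same list, differed by 0.15 ± 0.09 (adjusted p = 0.212, limma). Itgam, Ms4a1, Pax5 and Ighm were chosen after their values were seen. The part of these cells in the values of Fgr and Blk was not tested.

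Shc1 was higher in MT by similar amounts at both probe sets, and neither difference passed. At 1422854_at the wild-type arrays read 8.89, 9.06, 8.79 and 8.82 and the MT arrays 9.14, 9.03, 9.03 and 9.05, a difference of 0.17 ± 0.07 (SE, adjusted p = 0.0911, limma), with an interval from 0.01 to 0.33. At 1422853_at they read 6.33, 6.84, 6.19 and 6.11 in wild type and 6.45, 6.62, 6.56 and 6.51 in MT, a difference of 0.17 ± 0.14 (SE, adjusted p = 0.374, limma), with an interval from -0.13 to 0.47. Wild-type array 2 was the highest wild-type array at both probe sets, and it was the array that made the groups overlap at each of them. Without it limma gave 0.23 at 1422854_at (adjusted p = 0.0223) and 0.32 at 1422853_at (adjusted p = 0.00786), both past the threshold. At 1422853_at the difference was 0.08 without wild-type array 4 (adjusted p = 0.682, limma) and 0.11 without wild-type array 3 (adjusted p = 0.616), and neither passed.

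**Figure D2:**
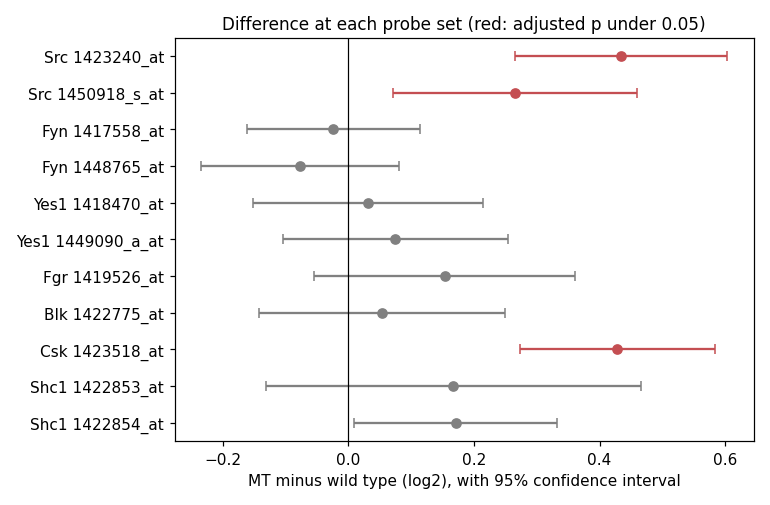
Difference between MT and wild type (log2) at each of the 11 probe sets, with its 95% confidence interval; red marks an adjusted p under 0.05. The intervals of both Src probe sets, Csk and Shc1 1422854_at lie above 0, and that of Shc1 1422854_at starts at 0.01.

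Leaving out each array in turn separated the calls. Src 1423240_at stayed called in 8 of 8 such fits, with differences from 0.38 to 0.47 and adjusted p-values from 0.00132 to 0.00458 (limma). Csk stayed called in 8 of 8, with differences from 0.40 to 0.46 and adjusted p-values from 0.000758 to 0.00313. Src 1450918_s_at stayed called in 2 of 8, without wild-type array 4 (0.33, adjusted p = 0.0127) and without MT array 3 (0.32, adjusted p = 0.0195), and lost its call without any other single array (wild-type 1, 2 or 3, MT 1, 2 or 4), where the adjusted p lay between 0.0643 and 0.1. Shc1 was called in 1 of 8 fits at each probe set, that without wild-type array 2. Fyn, Yes1, Fgr and Blk were called in 0 of 8, with unadjusted p-values from 0.132 to 0.712 in the fit to all arrays.

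**Figure D3:**
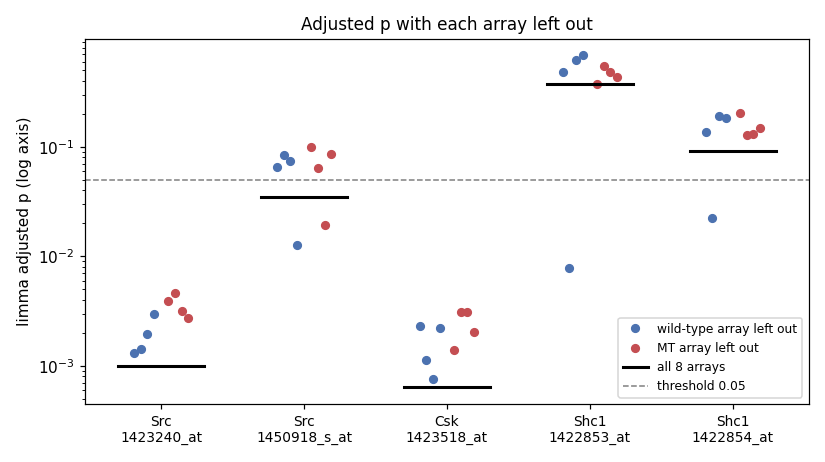
Adjusted p of limma (log axis) for Src, Csk and Shc1 with each wild-type array (blue) or MT array (red) left out, beside the value with all 8 arrays (black bar) and the threshold of 0.05 (dashed). The fits of Src 1423240_at and of Csk all lie below the threshold, and those of Src 1450918_s_at lie on both sides of it.

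Since Csk restrains the family, Src, Fyn and Yes1 were also set against Csk within each array, and so was the adaptor Shc1. Fgr and Blk were not. The probe set of each gene with the highest mean was used, and the test bears on unequal change and not on levels. Fyn minus Csk was -0.98 ± 0.13 in wild type and -1.43 ± 0.05 in MT (SD, n = 4), a change of -0.45, and no MT array reached a wild-type array (two-sided exact permutation test, p = 0.0286, the smallest that 70 assignments allow; adjusted p = 0.0571 over 4 differences). Yes1 minus Csk went from -1.28 ± 0.17 to -1.64 ± 0.11, a change of -0.35, again without overlap (exact permutation p = 0.0286, adjusted p = 0.0571). Neither passed after adjustment. By themselves Fyn and Yes1 differed by -0.02 and 0.07 at these probe sets and Csk by 0.43. Both changes therefore mostly repeat the rise of Csk.

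Src minus Csk, with Src read at 1450918_s_at, did not separate the groups. On the wild-type arrays it was 0.67, 0.42, 0.45 and 0.85 and on the MT arrays 0.65, 0.35, 0.20 and 0.53, a change of -0.16 (exact permutation p = 0.314, adjusted p = 0.314). Without wild-type array 4 it was -0.08, and without MT array 3 it was also -0.08. With the mean of both Src probe sets the change was -0.08 (exact permutation, adjusted p = 0.486). Src 1423240_at alone was not set against Csk, and each of these differed by 0.43 between groups. Shc1 minus Csk changed by -0.26, with 1 MT array inside the wild-type range (exact permutation p = 0.0571, adjusted p = 0.0762). Lyn minus Csk had been planned as well and could not be computed.

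**Figure D4:**
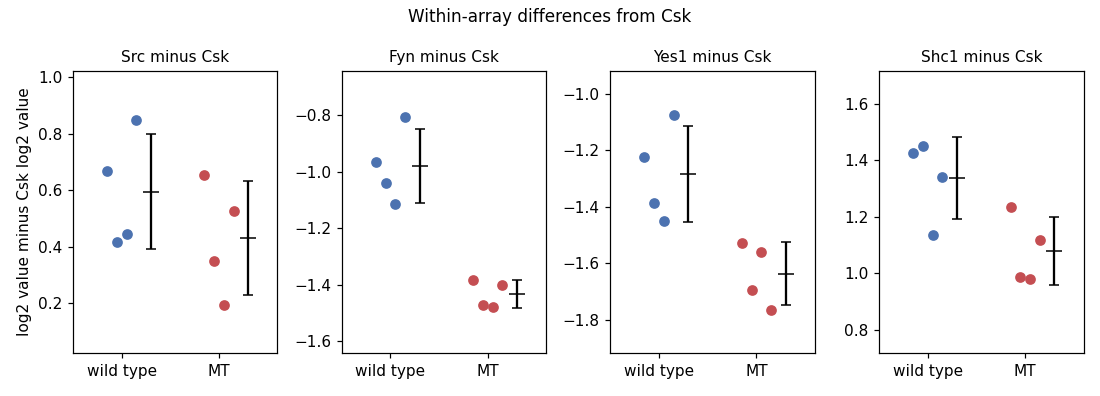
Log2 value of Src, Fyn, Yes1 or Shc1 minus that of Csk on the same array, for 4 wild-type arrays (blue) and 4 MT arrays (red), with mean ± SD in black. Fyn and Yes1 lie lower against Csk on every MT array than on any wild-type array, while Src (1450918_s_at) overlaps.

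The genes whose values followed those of Csk and Src most closely over the 8 arrays were taken by Pearson's r, as a description, since most of each pattern is the difference between the groups. For Csk they were Cenpn (r = 0.994), Cd55 (r = 0.994) and Skp2 (r = 0.993), which differed by 0.42, 1.92 and 0.92 between groups. Cenpn encodes a centromere protein, Cd55 a restrainer of complement and Skp2 a subunit of a ubiquitin ligase of the cell cycle. In all, 884 of 12386 genes had an r over 0.9 with Csk. For Src, by probe set 1450918_s_at, they were the adhesion molecule L1cam (r = 0.968), Ifrd1 (r = 0.957) and Serpinb6a (r = 0.953), and 61 genes had an r over 0.9.

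The other genes of the pathway were read at the gene level, with the highest-mean probe set for each gene, where 19.7% of 12393 genes were higher and 21.3% lower in MT, with a median of -0.01. These lists were drawn from textbook roles, with earlier results of these data known, and no test of a list as a whole was made. Of 4 measured kinases closest to the family and to Csk, 0 passed in limma (0 also had an unadjusted p under 0.05), with a median of 0.06. Frk, a relative of Src found in epithelia, differed by 0.17 ± 0.08 (adjusted p = 0.111). Ptk6, another epithelial relative, was no higher than the newer Bacillus controls on 8 of 8 arrays.

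Of 14 measured regulators of Src-family kinases, 7 were higher and 2 lower, with a median of 0.14. Ptprc, the leukocyte phosphatase CD45 that removes the inhibitory phosphate of the tail, rose by 1.81 ± 0.22 (adjusted p = 5.33e-05), in the arrays in which macrophage genes were higher. Cblc, an epithelial ubiquitin ligase of the Cbl family, rose by 0.67 ± 0.08, and Nmt2, which attaches the myristoyl anchor, by 0.60 ± 0.08. Nmt2 read low, at a mean of 3.85 in wild type, though above the newer Bacillus controls (2.57 to 3.90) of the same array on 8 of 8 arrays. Cav1, the caveolar scaffold that binds Src, fell by 1.38 on the log2 scale (SE 0.18, adjusted p = 0.00011), beside smooth muscle genes that were lower for 11 of 11 and endothelial genes that were lower for 1 of 10. Pag1, the membrane adaptor that recruits Csk, fell by 0.40 on the log2 scale (SE 0.08, adjusted p = 0.00189), and it was chosen after its value was seen. The part of cell make-up in these values was not tested.

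Of 19 measured substrates and partners of the kinases, 9 were higher and 2 lower, with a median of 0.23. Anxa2, a membrane-binding substrate of Src, rose by 0.63 ± 0.07 and Pxn, the focal adhesion scaffold paxillin, by 0.58 ± 0.07. Efs, an adaptor that binds the Src and Fyn SH3 domains, fell by 0.86 and Trip6, a LIM protein of focal adhesions, fell by 0.71 on the log2 scale. Of 2 further Anxa2 probe sets, 1 passed (0.32, adjusted p = 0.00453) and 1 did not (0.07, adjusted p = 0.375, limma). Of 2 further Pxn probe sets, 1 passed (0.48) and 1 did not (0.40, adjusted p = 0.101, limma). Luminal epithelial genes were higher for 13 of 13 in the same arrays, and the rise of Src and Csk came with them too. Their mean level was 10.59 to 10.72 in wild type and 11.35 to 11.43 in MT. Of 6 measured markers of secretory epithelium, 5 were lower and 1 higher in MT. Whether a larger share of luminal epithelium had a part in the rise of Src, Csk or their substrates was not tested.

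Of 13 measured genes of the Shc, Grb2 and Ras steps, 4 were higher and 1 lower, with a median of 0.08. Inppl1, the lipid phosphatase SHIP2 that binds Shc1, rose by 0.49 ± 0.08, Nras by 0.43 ± 0.06 and the docking protein Gab1 by 0.36 ± 0.07, while the kinase Araf fell by 0.33. Another 2 probe sets of Nras differed by 0.02 and 0.15 (adjusted p = 0.899 and 0.258, limma), so its call rests on the probe set chosen. Gab1 passed at 2 of its 3 probe sets and differed by 0.07 at the other (adjusted p = 0.446, limma). Grb2, chosen after its value was seen as the direct partner of Shc1, differed by 0.08 ± 0.07 (adjusted p = 0.429).

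Other proteins that middle T is known to bind went both ways, with 4 of 13 higher, 3 lower and a median of 0.01. The 14-3-3 genes Ywhaz, Ywhag and Ywhab rose by 0.71 ± 0.13, 0.57 ± 0.09 and 0.55 ± 0.06, and Wwtr1, the transcriptional co-activator TAZ, fell by 1.17 on the log2 scale. Of the further probe sets of these genes, 2 of Ywhaz and 1 of Ywhag did not pass. Of 11 measured genes of immune receptor signalling, in which Fyn, Lyn, Lck and Fgr act upstream, 6 were higher and 0 lower, with a median of 0.19. Tyrobp and Fcer1g, adaptors of myeloid receptors, rose by 1.06 ± 0.19 and 0.47 ± 0.10, Plcg2 by 0.72 ± 0.06 and the kinase Syk by 0.44 ± 0.10. Another 2 probe sets of Syk did not pass (0.17 and -0.08, adjusted p = 0.107 and 0.404, limma). Vav1, 1 of the 6 that passed, was no higher than the newer Bacillus controls on 8 of 8 arrays. Zap70, the T cell relative of Syk, chosen after its value was seen, differed by 0.00 ± 0.06 (adjusted p = 0.997).

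**Figure D5:**
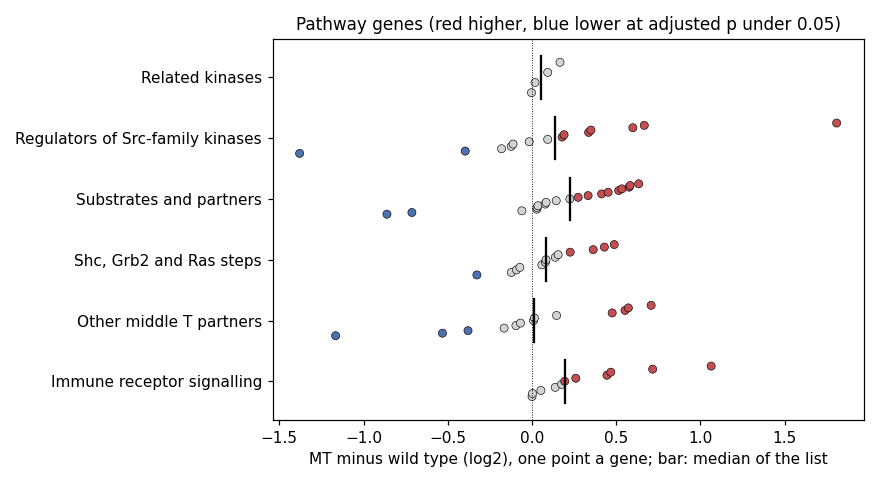
Difference between MT and wild type (log2) of each measured gene in 6 lists around the Src family, 1 point a gene; red and blue mark genes higher and lower at an adjusted p under 0.05, grey the others, and the black bar the median of a list. The medians run from 0.01 to 0.23, and the related kinases hold no coloured point.

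The tissue label was read from defining genes. On the wild-type arrays the 6 measured genes listed as markers of secretory epithelium had a mean level of 12.26 to 12.49, against 9.89 to 10.47 in MT. In MT 5 were lower (Pbsn, Spink1, Azgp1, Aldh1a1 and Msmb) and 1 was higher (Nupr1). Basal epithelial genes were lower for 5 of 10 and higher for 1, fibroblast and matrix genes lower for 9 of 12, and adipocyte genes lower for 5 of 6. The mean level of 6 seminal vesicle genes lay between 3.55 and 3.75 on all 8 arrays, with 3 of 6 no higher than the newer Bacillus controls on 8 of 8 arrays. RNA quality was read as the log2 value at the 3′ end of a control transcript less that at its 5′ end. For Gapdh it was 0.55 to 0.92 on the wild-type arrays and 0.45 to 0.64 on the MT arrays (exact permutation p = 0.0857), and for Actb 0.72 to 1.05 and 0.57 to 0.85 (exact permutation p = 0.114).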

How the data were processed

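Affymetrix arrays of biotin-labelled total RNA from ventral prostate were used, 4 for wild type and 4 for MT, grouped by the sample titles. The authors deposited log2 values made with RMA, per the submitters' processing notes, with the version not given in the sources used here, and no further scaling was applied. The 22690 probe sets spanned 2.47 to 14.27, with array medians from 6.21 to 6.23. The 64 control probe sets were left out of the tests. Of the other 22626, the platform annotation gave 20380 a single symbol, 691 several and 1555 none, and only single symbols named a gene. All 8 columns were used as deposited, with no filter. Precision is limited by the number of arrays.

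The test was limma (lmFit and eBayes, two-sided, no covariate) over 22626 probe sets, Benjamini-Hochberg adjusted, with a threshold of 0.05. Counts over lists used 12393 genes, each by its highest-mean probe set, and the adjusted p-values of genes outside the members come from that limma fit. Those given for further probe sets of such a gene come from the fit to 22626 probe sets. The members and lists were chosen with earlier results of these data known. Named outside the members were the 3 genes closest by Pearson's r to each called member and up to 4 of the largest called changes of a list, or its highest gene where none was called. Of marker lists only counts and genes that bear on a member are given. Exact permutation tests ran over the 70 assignments of arrays. Promoter windows came from RefSeq. The fit was tested on simulated data. Fits ran in limma 3.58.1 under R 4.3.3, tables in pandas 2.3.3 under Python 3.11.15, and figures in matplotlib 3.10.9. Alternatives changed the prior, array weights, pairing, scaling, filter, probe set rule, threshold and arrays used.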

Additional observations from a re-analysis of the deposited data

Results flagged for a closer look

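Of 30 groups of 4 values examined, at the member probe sets and the differences from Csk, 1 held an array far from the others. At Blk 1422775_at, wild-type array 3 read 4.66, while the other wild-type arrays read 4.87 to 4.91. Chance gives about 1 in 20 such groups (1 of 30 here).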

How the results depend on the processing

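The count of 3 called member probe sets, and the probe sets themselves, stayed with another prior, array weights, median centring, renewed quantile normalization, the filter at the median level (which tested 7 of the 11 and called 57.1% of all probe sets) and when wild-type array 4 and MT array 2 were both left out. It was 2 with 1 value for each gene (highest mean or mean of probe sets, Src and Csk), with unique-type probe sets and at an adjusted p under 0.01, and 2 to 4 with each array left out. In a test against a log2 change of 0.5 (limma treat) it was 0, with 0 at an unadjusted p under 0.05 in that test, and the share called over the array was 6.09%. The differences from Csk kept their direction in each setting run. That of Src was -0.05 without wild-type array 4 and MT array 2, against -0.16 with all arrays. No setting put Src 1423240_at alone against Csk, and each of these differed by 0.43 between groups. Same-numbered arrays of the groups correlated in their deviations at 0.078 to 0.16 over probe sets (0.1 to 0.18 over genes), and each of 8 arrays correlated best with its own number, a hint from the data that no label states. The fit with that number as a replicate block also called 3, the same probe sets (Src 1450918_s_at, adjusted p = 0.0268). Counts over the lists of regulators, substrates, Shc and Ras steps, middle T partners and immune receptor genes fell with unique-type probe sets. These left fewer genes (10529) to test. Regulators called higher were 5 in place of 7 with the replicate block and with the mean of a gene's probe sets. Immune receptor genes called higher were 5 in place of 6 in both, and 4 with unique-type probe sets. Genes of the Shc and Ras steps called higher were 6 in place of 4 with the mean of a gene's probe sets.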

Other observations

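Subunits of protein phosphatase 2A, a known cellular partner of middle T, differed in direction among the genes measured, chosen after their values were seen. The scaffold Ppp2r1a rose by 0.48 ± 0.07 (limma adjusted p = 0.000246), while its paralog Ppp2r1b fell by 0.53 and the catalytic Ppp2cb fell by 0.38 on the log2 scale (adjusted p = 0.000166 and 0.00171). The other catalytic gene, Ppp2ca, differed by 0.01 ± 0.07 (adjusted p = 0.928). Of the enzymes that attach myristate to Src-family kinases, Nmt2 rose at a low level, from 3.85 ± 0.09 to 4.45 ± 0.13 (SD, n = 4). Nmt1 differed by -0.12 ± 0.07 (limma adjusted p = 0.201).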
